A study of Mus musculus with 8 samples.

Results

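Histone deacetylases are the enzymes that remove acetyl groups from lysines, and 10 of the mouse genes that encode the zinc-dependent family, Hdac1 to Hdac9 and Hdac11, were followed here. They were picked by name, by matching the Entrez identifiers of a table of read counts to gene symbols, and are 10 of its 27179 genes. All 10 passed the filter on low counts, among 13498 genes tested. Hdac10 was not in the chosen set and is described with the relatives of the family at the end.

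The counts came from 8 libraries of polyadenylated RNA, each from neural stem and progenitor cells of 1 mouse fetus of strain C57BL/6 at E14.5 of gestation grown as neurospheres, which are floating clusters of dividing precursors, in a proliferation medium. Kat7 intact fetuses carried Kat7+/+NesCreT/+ and Kat7 deleted fetuses Kat7lox/loxNesCreT/+, with 4 libraries of each. All 8 therefore carried the Nestin-driven Cre recombinase, which acts in cells that express Nestin and their descendants. Each genotype came from 3 litters and no litter held both, so effects of litter cannot be told apart from those of genotype. Within each genotype 1 pair shared a litter, replicates 1 and 2 among the intact and 3 and 4 among the deleted.

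Acetylation of histone tails loosens chromatin and attracts reader proteins, and its level is set by acetyltransferases such as KAT7 (also called HBO1) and by the deacetylases that oppose them. Class I enzymes (HDAC1, HDAC2, HDAC3 and HDAC8) work mainly in the nucleus, the first pair as the catalytic core of the SIN3, NuRD and CoREST corepressor complexes and HDAC3 in the NCoR and SMRT complex. Class IIa enzymes (HDAC4, HDAC5, HDAC7 and HDAC9) have little deacetylase activity of their own. They bind MEF2 transcription factors and shuttle to the cytoplasm when kinases phosphorylate them and YWHA phosphoserine-binding proteins hold them there. HDAC6, of class IIb, deacetylates tubulin in the cytoplasm, and HDAC11 is the only enzyme of class IV. In neural progenitors HDAC1 and HDAC2 are known for overlapping roles in proliferation and differentiation.

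Library totals ran from 10687817 to 22444359 counts. Kat7 held 1204 to 2111 reads in intact libraries. Deleted replicates 1 to 4 held 416, 4, 253 and 1, which is 31.4%, 0.437%, 16.5% and 0.104% of the mean intact CPM (counts per TMM-scaled library size). The log2 fold change of Kat7, deleted minus intact, was -3.02 ± 1.10 (edgeR adjusted p = 0.128) with every deleted library below every intact one, and which exons were removed is not given in the sources used here. The mitochondrial genome gave 18.95% to 23.5% of intact counts. In deleted replicates 1 to 4 it gave 29.9%, 18.95%, 17.1% and 34.4%. The 10 neural stem cell markers (Nes, Vim, Sox2 and others) summed to 5071 to 6165 CPM in intact and 3701 to 5744 CPM in deleted libraries. Most of that sum came from Nes, Vim and Fabp7. Sox1, of the same list, had 12.3 to 31.3 CPM in intact libraries and 0.19, 48.7, 1.98 and 33.2 CPM in deleted replicates 1 to 4. Microglial markers summed to at most 8.11 CPM in any library, with C1qa and C1qb at 0 counts in all 8. By edgeR 5.1% of all genes tested were called higher and 2.8% lower. Of 10 astrocyte markers 4 were called higher (Aqp4, Fgfr3, Apoe and Sparcl1). Called lower were 2 of 8 tested neuron, 2 of 7 oligodendrocyte lineage and 1 of 3 endothelial markers, while 0 of 10 stem cell markers were called. Of 4 tested contractile and mesenchymal markers 2 were called higher. This last list summed to 4.49 to 5.38 CPM in intact libraries and to 6.66, 802, 25.7 and 253 CPM in deleted replicates 1 to 4.

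Hdac2 was the most abundant of the 10 transcripts per length in intact cultures. In RPKM, the CPM divided by the deposited gene length in kilobases, Hdac2 had a level of 139.8 ± 6.94 (SD, n = 4) and Hdac3 of 62.9 ± 1.70. Hdac5 followed at 22.8 ± 2.34, the highest level of a class IIa gene. Hdac1 stood at an RPKM of 10.3 ± 0.698, Hdac4 at 8.55 ± 0.707, Hdac6 at 8.498 ± 0.431 and Hdac8 at 6.39 ± 0.797. At the low end were Hdac7 with 3.26 ± 0.594, Hdac9 with 2.61 ± 0.339 and Hdac11 with 0.722 ± 0.0856. The intact ranges of neighbours in this order overlapped for 2 pairs, Hdac4 with Hdac6 and Hdac7 with Hdac9.

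The place of Hdac1 in that order is uncertain. Of the 1939 windows of 100 bases, the length of a read, in its longest GENCODE M21 coding transcript, 907 (46.8%) also occur letter for letter in processed pseudogenes, among them Gm10093. How reads that fit several places were counted is not given in the sources used here, so the level of Hdac1 is not comparable with that of Hdac2, which shares 0 of its 3151 windows with another gene. Hdac11 shared 19.4% of its windows with Gm44002, an unclassified transcript on the other strand, and Hdac4 0.462% with the antisense transcript Gm26720. Over all its annotated transcripts Hdac4 shares 3536 of 15813 exon bases (22.4%) with Gm26720, and Hdac11 594 of 3849 (15.4%) with Gm44002. The deposited gene lengths are shorter, 3960 bases for Hdac4 and 2494 for Hdac11. How much of each overlap lies in the counted exons is therefore not known. Without a stated strand setting, reads from these overlaps cannot be told apart.

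Across the 10 genes, 1 passed the test of deleted against intact cultures (edgeR, Benjamini-Hochberg adjusted p under 0.05 over all genes tested): Hdac4, which was higher. Of all tested genes 7.90% passed, so 1 in 10 is near the background. Of all genes 5.1% were called higher and 2.8% lower, and 0 members were called lower. Before adjustment 4 members had p under 0.05, Hdac4 and Hdac7 on the higher side and Hdac2 and Hdac3 on the lower, against 26.2% of all genes at that level, and DESeq2 called Hdac4 higher and Hdac2 lower, where it called 16.3% of all genes. The genotypes did not overlap for 3 of the 10, Hdac4 above and Hdac2 and Hdac3 below, against 19.9% of all genes (10.7% above, 9.21% below). The median log2 fold change of the members was 0.26, beside 0.05 for all genes tested, with 6 fitted above 0 and 4 below (45% of all genes were below). All fold changes are deleted minus intact, with an approximate standard error after ±. In bulk RNA, a shift in the number of cells of a type and a shift in RNA per cell cannot be told apart.

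**Figure D1:**
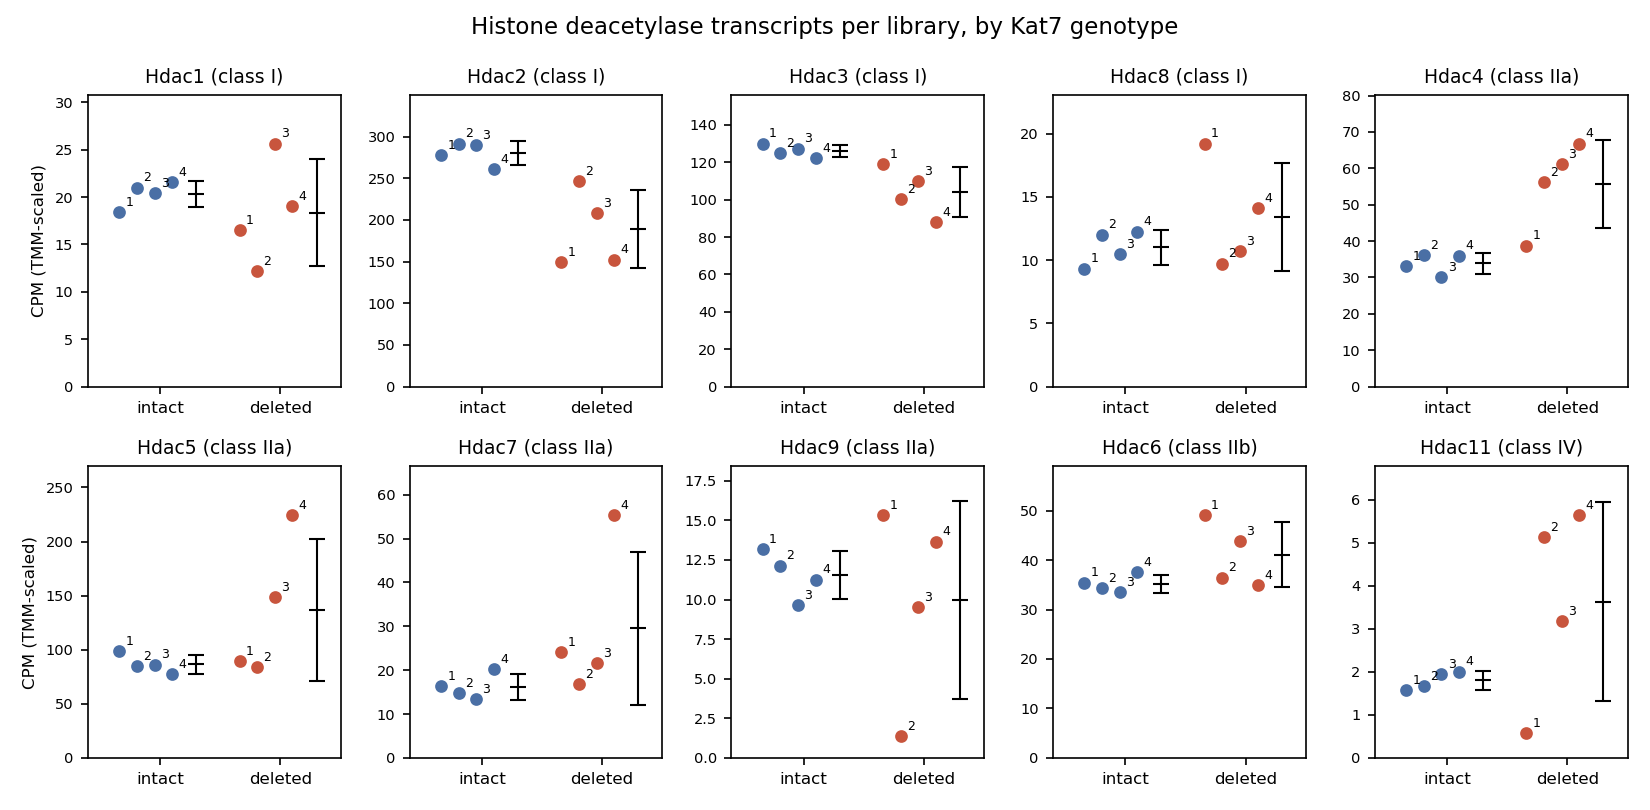
TMM-scaled CPM of each of the 10 histone deacetylase genes (linear axes from 0) in 4 Kat7 intact and 4 Kat7 deleted libraries; points are libraries labelled with their replicate number, and the bar beside them is the mean with the SD. Hdac4 lies above the intact libraries in all 4 deleted ones and Hdac2 and Hdac3 lie below, while Hdac5, Hdac7, Hdac9 and Hdac11 spread widely among the deleted libraries.

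Hdac4, a class IIa corepressor of MEF2 factors (chr1:91928779-92195702, minus strand, GRCm38), was higher in Kat7 deleted cultures. Its intact libraries held 33.2, 36.1, 30.2 and 36.0 CPM and deleted replicates 1 to 4 held 38.7, 56.3, 61.2 and 66.8 CPM. Every deleted library was above every intact one, deleted replicate 1 by the smallest margin. The mean rose 1.65-fold, from 33.9 ± 2.80 to 55.8 ± 12.1 CPM (SD, n = 4), with a log2 fold change of 0.72 ± 0.17 and an edgeR adjusted p of 0.041. A permutation test of log2 CPM (exact, two-sided) gave p = 0.0286, the smallest that 70 arrangements of 4 against 4 allow, and it treats littermates as independent. The adjusted p of Hdac4 was over the threshold without any 1 intact library (0.112 to 0.12) and without deleted replicate 3 (0.0834) or 4 (0.0802). With scaling by total counts it was 0.119, with litter as a random block 0.0952 and with littermates summed 0.171. Of 10 astrocyte markers, Aqp4, Gfap, Fgfr3 and Apoe were likewise above the intact range in all 4 deleted libraries. The others overlapped between genotypes. Among those, Slc1a2 was below the intact range in deleted replicates 2, 3 and 4, and Gja1 had a log2 fold change of -0.19. The whole astrocyte list summed to 895 to 1809 CPM in intact libraries. In deleted replicates 1 to 4 it summed to 7144, 855, 2431 and 2029 CPM. The part of cell make-up in the Hdac4 value was not tested.

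The start regions of Hdac4 and Hdac2 are shown because these genes passed the test, or came nearest to it, in the 2 directions. Each is the 250 bases before the annotated start (RefSeq, GRCm38.p6), 5′ to 3′ on the strand of the gene. Capitals mark matches, on either strand, to the GC box GGGCGG (bound by SP and KLF factors) and to CCAAT (bound by NF-Y), the only matches to 4 motifs searched. They lie at chr1:92180342-92180591 on the minus strand for Hdac4 and at chr10:36974294-36974543 on the plus strand for Hdac2. Both overlap the full annotated span of their gene, so other annotated transcripts begin upstream of these starts.
Hdac4: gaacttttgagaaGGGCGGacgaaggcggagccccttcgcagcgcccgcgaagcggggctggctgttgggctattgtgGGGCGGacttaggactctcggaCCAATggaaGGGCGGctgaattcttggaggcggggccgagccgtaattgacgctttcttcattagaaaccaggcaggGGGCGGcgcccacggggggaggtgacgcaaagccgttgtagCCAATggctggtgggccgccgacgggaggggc
Hdac2: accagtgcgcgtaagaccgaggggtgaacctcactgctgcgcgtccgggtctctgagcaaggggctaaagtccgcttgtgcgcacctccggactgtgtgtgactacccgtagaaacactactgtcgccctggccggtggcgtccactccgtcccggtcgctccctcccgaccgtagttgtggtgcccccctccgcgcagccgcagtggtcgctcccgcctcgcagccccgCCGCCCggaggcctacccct
The Hdac4 window held 4 GC boxes and 2 CCAAT matches in 65.2% G and C with 23 CG pairs, and the Hdac2 window held 1 GC box and no CCAAT in 68.8% with 27. The window of Hdac6, which was not called, also held 4 GC boxes and 2 CCAAT matches. Those of Hdac5 and Hdac8 held 2 CCAAT matches each. At least 1 GC box occurs in 32.7% of all 32851 windows of this length in the table and at least 1 CCAAT in 33.8%. The other motifs searched, the E-box CACGTG and the cyclic AMP element TGACGTCA (in 6.02% and 1.55% of windows), had 0 matches in the windows of all 8 members with an entry. Entries for Hdac1 and Hdac3 were not among them. Hdac9 and Hdac8, by contrast, start in sequence of lower G and C content, 44.4% at the upstream Hdac9 start and 48.4% for Hdac8.

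Among class I genes, Hdac2 and Hdac3 had lower levels in every deleted library than in any intact one, but neither passed the test. For Hdac2, a core subunit of several corepressors (chr10:36974297-37001889), intact libraries held 278, 292, 289.8 and 261 CPM and deleted replicates 1 to 4 held 149.6, 246, 208 and 152 CPM. The lowest values were in deleted replicates 1 and 4, the libraries with the highest mitochondrial share. Means were 280.2 ± 13.9 and 189 ± 46.7 CPM, with a log2 fold change of -0.57 ± 0.18 (edgeR adjusted p = 0.0859). With mitochondrial transcripts left out of the counts it was -0.59 (adjusted p = 0.0783), which bears on the scaling alone. Any other part of the mitochondrial share in the value was not tested. Without deleted replicates 1 and 4 the value was -0.32 (adjusted p = 0.126), and without deleted replicate 2, whose level was nearest to the intact range, it was -0.72 with an adjusted p of 0.0201, past the threshold.

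Hdac3, the deacetylase activated by NCoR and SMRT, had 130.0, 125, 127 and 122 CPM in intact libraries and 119, 100.3, 110.0 and 87.8 CPM in deleted replicates 1 to 4. The intact values were close together and deleted replicate 4 was lowest. Its log2 fold change was -0.27 ± 0.12 with an edgeR adjusted p of 0.184, and the exact permutation p was 0.0286 for Hdac3 as for Hdac2. Without deleted replicate 4 the value was -0.20, and with scaling by total counts it was -0.41.

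The other class I genes overlapped between genotypes. Hdac1, the paralog and partner of Hdac2 (chr4:129516104-129542646), had intact libraries at 18.4, 20.99, 20.4 and 21.5 CPM and deleted replicates 1 to 4 at 16.5, 12.2, 25.6 and 19.0 CPM. Deleted replicate 3 was the highest of all 8 libraries and deleted replicate 2 the lowest. The log2 fold change of -0.15 ± 0.21 (edgeR adjusted p = 0.702) turned to 0.01 without deleted replicate 2.

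Hdac8, which deacetylates the cohesin subunit SMC3 (chrX:102284638-102505381), had intact libraries at 9.34, 12.02, 10.5 and 12.3 CPM and deleted replicates 1 to 4 at 19.2, 9.73, 10.7 and 14.1 CPM. Its highest level was in deleted replicate 1, which also had the highest astrocyte marker sum. That sum was above the intact range in deleted replicates 3 and 4 too, with Hdac8 within the intact range in replicate 3 and above it in replicate 4. The part of cell make-up in the value was not tested. The log2 fold change of 0.29 ± 0.23 (edgeR adjusted p = 0.47) was 0.06 without deleted replicate 1 and 0.12 with scaling by total counts. Hdac8 and Hdac6 are X-linked, and Xist had at most 6 counts in any library.

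The other class IIa genes varied more among the deleted cultures than Hdac4 did. Hdac5, a signal-responsive corepressor that is abundant in brain (chr11:102195747-102230172), had 98.6, 84.8, 86.2 and 77.2 CPM in intact libraries and 89.1, 84.2, 149 and 225 CPM in deleted replicates 1 to 4. Deleted replicates 1 and 2 lay within the intact range, and replicates 3 and 4, which were littermates, lay above it. The log2 fold change was 0.66 ± 0.30 (edgeR adjusted p = 0.205) and 0.31 without deleted replicate 4.

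Hdac7, known for its role in developing blood vessels and lymphocytes (chr15:97792661-97844502), had 16.4, 14.7, 13.4 and 20.2 CPM in intact libraries and 24.2, 16.9, 21.6 and 55.4 CPM in deleted replicates 1 to 4. Replicate 4 stood far above the rest and replicate 2 lay within the intact range. Its log2 fold change of 0.87 ± 0.36 (edgeR adjusted p = 0.166) was 0.37 without deleted replicate 4. In intact libraries 10 endothelial markers summed to 4.45 to 9.45 CPM. They summed to 3.11, 21.7, 4.34 and 4.96 CPM in deleted replicates 1 to 4. In replicate 2 most of the sum came from Tek (13.9 CPM) and Emcn (5.88 CPM). Pecam1 had 1.65 CPM there, Cdh5, Kdr and Esam 0.0918 CPM each, and the rest of the list 0. The part of these markers in the Hdac7 value was not tested.

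Hdac9, the class IIa member with the lowest level per length (chr12:34047580-34917095), had 13.2, 12.1, 9.64 and 11.3 CPM in intact libraries and 15.3, 1.38, 9.50 and 13.7 CPM in deleted replicates 1 to 4. Deleted replicate 2, where Hdac9 had 15 reads, stood below all others, while replicates 1 and 4 lay above the intact range and replicate 3 just below it. Its log2 fold change of -0.21 ± 0.55 (edgeR adjusted p = 0.843) turned to 0.15 without deleted replicate 2. The same library had the lowest sum of 10 oligodendrocyte lineage markers, 449.6 CPM against 976 to 1728 CPM in the other 7 libraries. Most of its sum came from Olig1 (193.5 CPM) and Olig2 (172.5 CPM). Pdgfra and Sox10, of the same list, were instead highest in that library, at 59.6 and 1.93 CPM. The part of cell make-up in the value was not tested.

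Hdac6, the cytoplasmic tubulin deacetylase (chrX:7930116-7948047), had intact libraries at 35.4, 34.3, 33.5 and 37.6 CPM and deleted replicates 1 to 4 at 49.1, 36.4, 43.9 and 34.96 CPM. Deleted replicates 1 and 3 were above the intact range and replicates 2 and 4 within it. Its log2 fold change was 0.22 ± 0.13 (edgeR adjusted p = 0.32). It was 0.13 without deleted replicate 1, 0.08 with scaling by total counts and 0.02 without deleted replicates 1 and 3.

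Hdac11, the class IV enzyme (chr6:91156670-91174692), had the lowest level of the set. Intact libraries held 22, 28, 40 and 46 reads, or 1.57, 1.67, 1.96 and 2.01 CPM, and deleted replicates 1 to 4 held 9, 56, 58 and 65 reads, or 0.571, 5.14, 3.18 and 5.65 CPM. Deleted replicate 1, which kept the most Kat7 reads of the deleted libraries, was below every intact library, and the other 3 were above all of them. The log2 fold change was 1.00 ± 0.57 (edgeR adjusted p = 0.301), and without deleted replicate 1 it was 1.36 with an adjusted p of 0.0229, past the threshold. With litter as a random block it was 0.32 (adjusted p = 0.826) and with limma-voom 0.48 (0.684). The lowest Hdac11 levels among deleted cultures were in replicates 1 and 3 and the highest in replicates 2 and 4, and replicates 2 and 4 had 4 reads and 1 read of Kat7. Without deleted replicates 1 and 3, left out for their Kat7 reads, the log2 fold change of Hdac11 was 1.57 (edgeR adjusted p = 0.00897). Those libraries also had the lowest Hdac11 levels among the deleted ones, so that fit is no test of a relation to Kat7 reads. Such a relation was not tested.

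**Figure D2:**
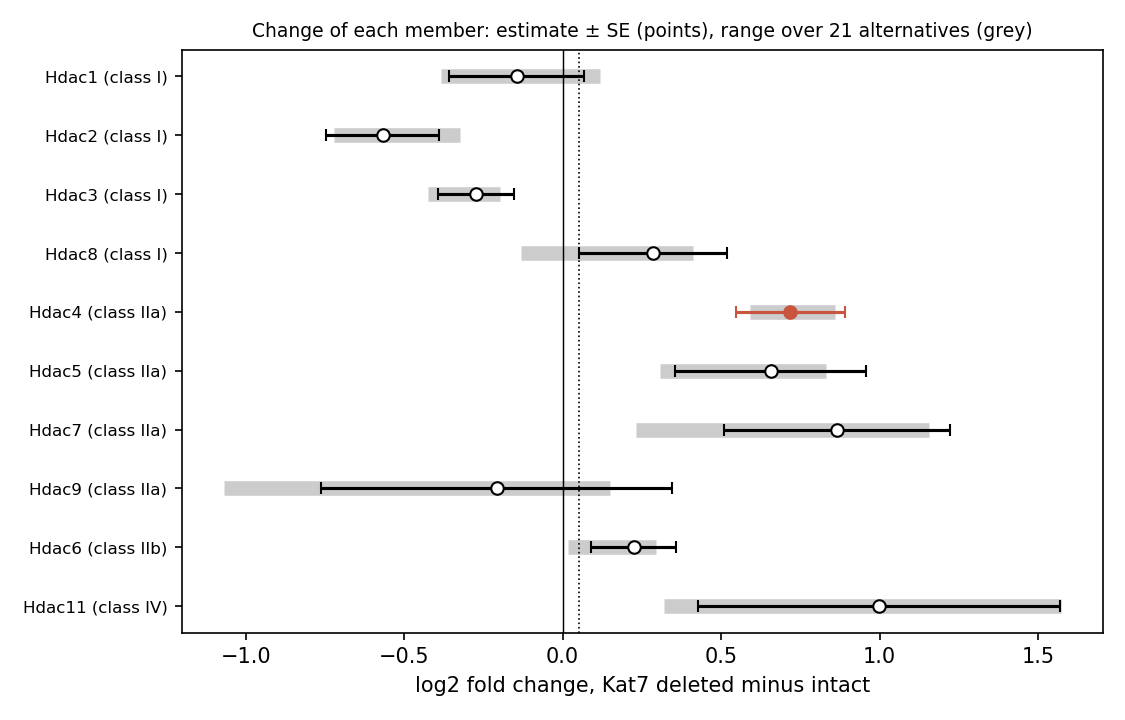
Log2 fold change (deleted minus intact) of each member with its approximate SE, the filled point being the member that passed the test, over a grey bar for the range of 21 alternative analyses; the dotted line is the median of all genes tested (0.05). The bars of Hdac2, Hdac3, Hdac4, Hdac5, Hdac6, Hdac7 and Hdac11 stay on 1 side of 0, and those of Hdac1, Hdac8 and Hdac9 cross it.

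All 10 members had a larger SD of log2 CPM among deleted than among intact libraries, as did 86.6% of all tested genes. The SD among deleted libraries was widest for Hdac9, at 1.57, and Hdac11, at 1.42, against 0.19 and 0.16 among intact ones. It was narrowest for Hdac3, at 0.19 against 0.04. No deleted library was the extreme one for every gene: relative to the intact mean of log2 CPM, replicate 1 was lowest for Hdac2 (-0.90) and Hdac11 (-1.47), replicate 2 for Hdac1 (-0.73) and Hdac9 (-2.95), and replicate 4 highest for Hdac4 (0.98), Hdac5 (1.38), Hdac7 (1.79) and Hdac11 (1.59). In replicate 4 the mitochondrial share (34.4%) was above the intact range, as it was in replicate 1 (29.9%). The summed mesenchymal markers were above the intact range in all 4 deleted libraries. They were highest in replicate 2, at 802 CPM against 253 CPM in replicate 4. In replicate 2 most of the sum came from Col3a1 (334 CPM), Acta2 (191 CPM), Thbs2 (172 CPM) and Dcn (84.1 CPM). Tagln, Col1a1, Col1a2, Pdgfrb and Lum had at most 1.56 CPM there. Col3a1 had at most 0.22 CPM in the other deleted libraries. The part of the marker sum or the mitochondrial share in these values was not tested.

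The make-up of the set by class varied little among intact cultures and more among deleted ones. Class I genes gave 81.4% to 83.6% of the summed RPKM of the 10 genes in intact libraries. Deleted replicates 1 to 4 had 74.1%, 78.4%, 70.9% and 57.7%. Class IIa genes gave 13.1% to 15.2% of it in intact libraries. Their shares in deleted replicates 1 to 4 were 20.1%, 17.0%, 24.3% and 37.8%, all above the intact range. Within that, Hdac2 alone held 51.1% to 53.8% of the intact sum and 36.0%, 52.1%, 41.4% and 31.9% of the deleted sums, so deleted replicate 2 stayed in the intact range. The summed RPKM itself was 265.9 ± 7.21 in intact and 233 ± 18.5 in deleted libraries. It was lower in every deleted library (207 to 251) than in any intact one (255 to 271), so a class can rise in share without rising in level. In deleted replicate 2, Hdac4 was the only class IIa gene above its intact range in RPKM. Hdac5 and Hdac7 were within theirs and Hdac9 was below. These shares are descriptions with no test, and the uncertain count of Hdac1 enters them.

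**Figure D3:**
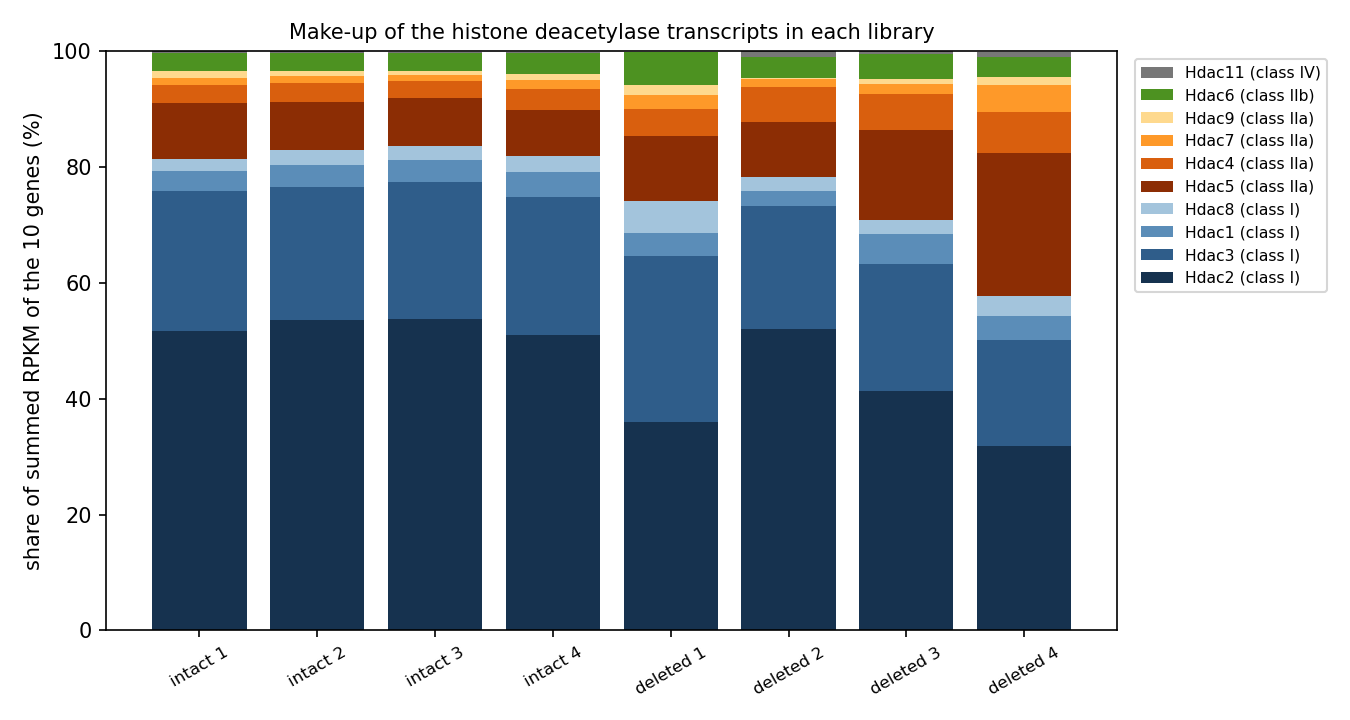
Stacked bars give the share (%) of each gene in the summed RPKM of the 10 histone deacetylases in each of 8 libraries, blue for class I, orange and brown for class IIa, green for class IIb and grey for class IV. Class IIa takes 13.1% to 15.2% in the intact libraries and from 17.0% in deleted replicate 2 to 37.8% in deleted replicate 4.

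In deleted cultures the order of mean levels per length changed in the middle of the list. Hdac2 (94.4 ± 23.3 RPKM), Hdac3 (52.0 ± 6.65) and Hdac5 (36.0 ± 17.3) kept the top places, with Hdac3 above Hdac5 in 3 of 4 libraries and their ranges overlapping. Hdac4 came next at 14.1 ± 3.06 RPKM, then Hdac6 at 9.92 ± 1.599, Hdac1 at 9.32 ± 2.85 and Hdac8 at 7.79 ± 2.48. The lowest were Hdac7 at 5.95 ± 3.53, Hdac9 at 2.25 ± 1.41 and Hdac11 at 1.46 ± 0.924 RPKM. Neighbours overlapped everywhere from Hdac4 down.

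The genes whose log2 CPM followed Hdac4 most closely over the 8 libraries were Ptges3l (Pearson r = 0.985), Asxl2, a partner of the BAP1 deubiquitinase (r = 0.982), and the zinc finger gene Zfp174 (r = 0.974). All are a description over libraries that share the genotype split. None of these passed the test, with log2 fold changes of 0.89 ± 0.25, 0.39 ± 0.11 and 0.78 ± 0.24 and edgeR adjusted p of 0.06, 0.0597 and 0.0867. Among the other deacetylases and their partners the closest was Ing2, a SIN3 complex subunit that reads methylated histone H3 (r = 0.919).

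The proteins that deacetylases work with were taken as 12 lists of 96 genes, of which 95 were tested. Of these, 2 were called higher and 1 lower, 3.16% against 7.90% of all genes, and their median log2 fold change was 0.00. Unadjusted p-values under 0.05 were found for 10 on the higher and 5 on the lower side, and DESeq2 called 5 and 3. These are 15.8% and 8.42% of the list genes, against 26.2% and 16.3% of all genes. Of the 3 genes called by edgeR, 1 was among 14 SIN3 genes (7.14%) and 2 among 10 CoREST genes (20%), against 7.90% of all genes. The NuRD list, also built around HDAC1 and HDAC2, had 0 of 13. Counts this small do not show that calls gather in these complexes.

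Sin3b, a scaffold that holds HDAC1 and HDAC2, was higher in all 4 deleted libraries. Intact libraries held 101.6 ± 3.71 CPM and deleted replicates 1 to 4 held 148, 153, 139 and 162 CPM, a log2 fold change of 0.57 ± 0.10 (edgeR adjusted p = 0.0159). It was past the threshold in 14 of 21 alternatives. Leaving out any 1 intact library gave an adjusted p of 0.0628 to 0.0771, littermates summed gave 0.0835 and scaling by total counts 0.0948. Of 14 SIN3 genes 1 was called higher and 0 lower by both edgeR and DESeq2 (7.14%, against 7.90% and 16.3% of all genes). Before adjustment p was under 0.05 for 1 on the higher and 2 on the lower side (21.4%, against 26.2%). The paralog Sin3a stood at 95.4 ± 7.32 and 97.9 ± 23.2 CPM (adjusted p = 0.914).

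In the CoREST list, Kdm1a, the histone lysine demethylase also called LSD1, was lower and Hmg20b, an HMG-box subunit, was higher. Kdm1a had 204, 223, 208 and 197 CPM in intact libraries and 138, 96.4, 167 and 117 CPM in deleted replicates 1 to 4, so the genotypes did not overlap, and its log2 fold change was -0.68 ± 0.17 (edgeR adjusted p = 0.0455). Hmg20b went from 34.4 ± 3.32 to 49.3 ± 4.52 CPM, a log2 fold change of 0.52 ± 0.12 (adjusted p = 0.0368). Without 1 intact library the adjusted p was 0.104 to 0.139 for Kdm1a and 0.0872 to 0.124 for Hmg20b. Kdm1a also missed the threshold without deleted replicate 4 (0.0909), and Hmg20b without deleted replicate 3 (0.0525) or 4 (0.0729). With litter as a random block the adjusted p was 0.0854 for Kdm1a and 0.0744 for Hmg20b, with littermates summed 0.1254 and 0.117, and with scaling by total counts 0.0517 and 0.154. Of the 10 CoREST genes edgeR called these 2 (20%, against 7.90% of all genes). Before adjustment p was under 0.05 for 3 on the higher and 1 on the lower side (40%, against 26.2%). The share called by DESeq2 was 30%, against 16.3%. DESeq2 also called Zmym3, a zinc finger subunit, at 39.6 ± 3.72 and 52.5 ± 6.72 CPM (edgeR adjusted p = 0.0856), which was named after its values were seen. The median of the list was 0.04.

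**Figure D4:**
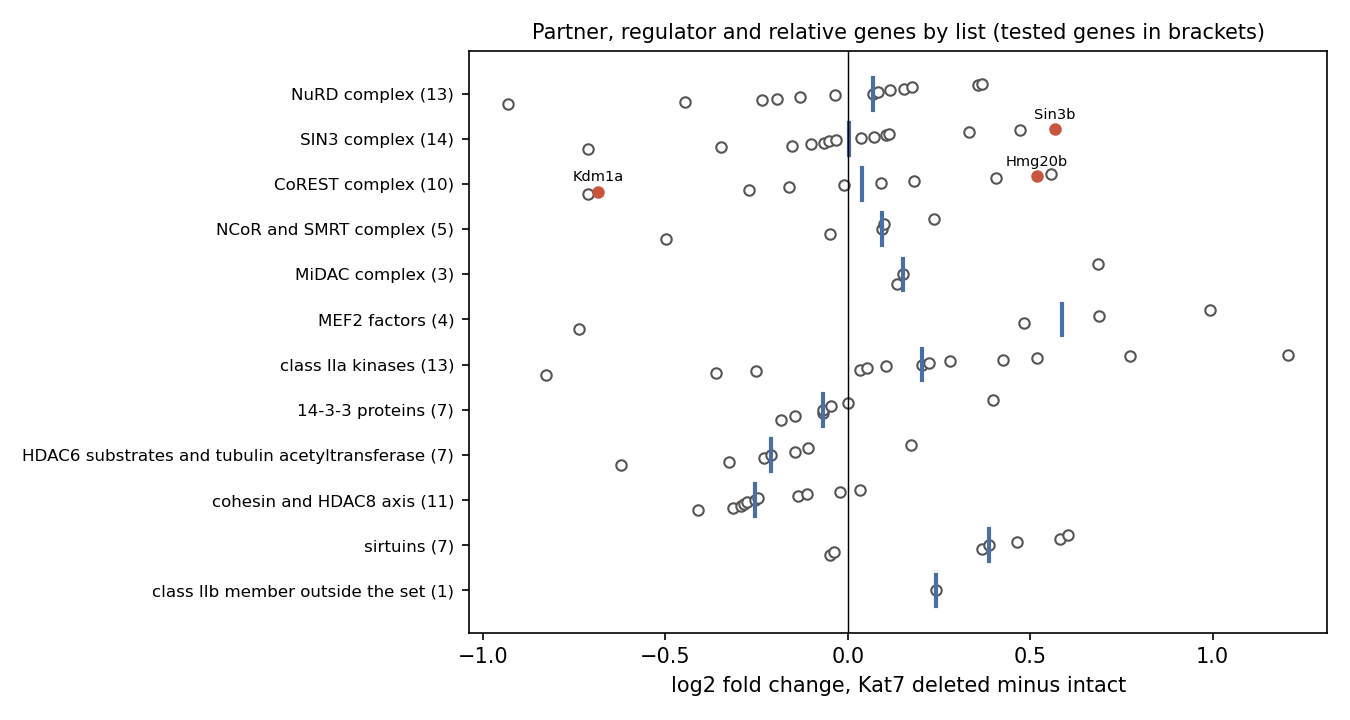
Log2 fold change (deleted minus intact) of 95 tested partner, regulator and relative genes in 12 lists, filled where the gene passed the test; blue bars are list medians. Sin3b and Hmg20b are the called genes above 0 and Kdm1a the called gene below 0.

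No gene of the other complexes passed the edgeR test. In the NuRD list, with the remodeller Chd4 as its most abundant member (494 ± 59.9 and 518 ± 57.9 CPM), 0 of 13 were called, and before adjustment p was under 0.05 for 1 in each direction. DESeq2 called 1 lower, Rbbp4, a histone-binding subunit, at 361 ± 23.6 and 265 ± 25.9 CPM (edgeR adjusted p = 0.0606). In the NCoR and SMRT list 0 of 5 tested were called, 1 was on the lower side with an unadjusted p under 0.05, and DESeq2 called 1 lower, Tbl1xr1, an exchange factor of the complex, at 240.3 ± 11.7 and 169.99 ± 38.3 CPM (edgeR adjusted p = 0.111). Ncor1, the scaffold that activates HDAC3, stood at 223 ± 13.8 and 239 ± 10.98 CPM (adjusted p = 0.597). The 3 genes of the mitotic deacetylase complex (MiDAC) had 0 calls, none at an unadjusted p under 0.05 and none by DESeq2, with Mideas at 30.3 ± 6.62 and 33.2 ± 2.12 CPM. Rbbp4 and Tbl1xr1 were named after their values were seen. Unadjusted p under 0.05 was found for 15.4% of the NuRD and 20% of the NCoR and SMRT genes, against 26.2% of all genes. DESeq2 called 7.69% and 20%, against 16.3%.

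Genes that act with class IIa enzymes had values above and below the intact range and no edgeR calls. Among 4 MEF2 factors 2 were higher at an unadjusted p under 0.05 (50%, against 26.2% of all genes). DESeq2 called Mef2d (25%, against 16.3%). Mef2a, the most abundant member of that list by mean CPM over both genotypes, stood at 47.0 ± 9.51 and 65.7 ± 9.0 CPM (edgeR adjusted p = 0.117). Mef2c had 50.2 to 56.6 CPM in intact libraries. In deleted replicates 1 to 4 it had 60.1, 2.94, 28.4 and 36.3 CPM (edgeR adjusted p = 0.496). Among 13 kinases that phosphorylate class IIa enzymes 3 were higher at an unadjusted p under 0.05 (23.1%, against 26.2% of all genes). DESeq2 called Sik1 (7.69% of the list, against 16.3%), a salt-inducible kinase, at 5.17 ± 1.15 and 11.99 ± 6.60 CPM (edgeR adjusted p = 0.1003). Of the 13, 10 were fitted above 0 and 3 below. Those 3, Camk2d, Camk4 and Prkd3, were each under the intact range in 3 deleted libraries. Camk2b, the most abundant kinase of the list, had 297 ± 20.03 and 319 ± 103.6 CPM. Scaling by total counts took its log2 fold change from 0.11 to -0.04. The 7 YWHA genes (14-3-3 proteins) had 0 calls by edgeR or DESeq2 and none at an unadjusted p under 0.05, with Ywhae at 301 ± 9.51 and 265 ± 28.8 CPM. Mef2c, Mef2d, Sik1, Camk2d, Camk4 and Prkd3 were named after their values were seen.

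Lists around HDAC6 and HDAC8 had 0 calls by edgeR or DESeq2 and no gene at an unadjusted p under 0.05. Of 11 cohesin genes 10 were fitted below 0, against 45% of all genes, with a median log2 fold change of -0.25, and Stag2 stood at 362 ± 37.1 and 273 ± 68.6 CPM (edgeR adjusted p = 0.208). Of 7 genes for HDAC6 substrates and the tubulin acetyltransferase 6 were fitted below 0. Hsp90ab1, a cytosolic chaperone, stood at 2257 ± 104.5 and 2042 ± 618 CPM (adjusted p = 0.729). The Tuba1 genes in that list are near-identical copies, so their counts are uncertain.

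The relatives of the family were not called either. The 7 sirtuins, which deacetylate with the cofactor NAD, had 0 calls by edgeR or DESeq2 and none at an unadjusted p under 0.05, with a median log2 fold change of 0.39 and 5 of 7 fitted above 0. Sirt1, their most abundant member by CPM, stood at 28.2 ± 5.82 and 27.4 ± 4.50 CPM (adjusted p = 0.889). Hdac10, the other class IIb gene and a polyamine deacetylase, stood at 8.81 ± 1.65 and 10.4 ± 3.31 CPM, a log2 fold change of 0.24 ± 0.26 (edgeR adjusted p = 0.586).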

How the data were processed

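RNA extracted with a column kit was made into TruSeq libraries and sequenced in single reads of 100 bp, per the labels' protocols. The files the authors deposited hold raw read counts for each Entrez gene, with gene lengths. CASAVA 1.8.2, featureCounts and mm10 were used, per the submitters' processing notes. The aligner, the treatment of reads with several matches and the strand setting are not given in the sources used here. The 8 per-library tables equalled the columns of the joint table. Symbols came from a RefSeq table of GRCm38.p6 (the mm10 assembly), which matched 25275 of 27179 identifiers.

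Deleted and intact libraries, 4 of each, were compared with edgeR 4.0.16 (R 4.3.3) after filterByExpr with a minimum count of 10 and TMM scaling, by its robust quasi-likelihood F test with no covariate. Adjusted p-values are Benjamini-Hochberg over 13498 genes. The SE was derived from F, as the size of the log2 fold change divided by its root. Permutation tests used log2 CPM with a prior count of 2. Cultures came from separate fetuses, some of them littermates, so p-values rest on the spread between these cultures.

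The members, the lists and the naming rule (all members and, from each partner list, up to 4 called genes or the most abundant one) were chosen with earlier results of these data known. The 21 alternatives used other scalings, filters, DESeq2 1.42.0, limma 3.58.1 (voom), litter, the replicate number, and libraries left out. The fits were also run on simulated counts with planted changes. Those counts had the same spread setting for every gene and both genotypes, and no litters. In these data 86.6% of tested genes had a larger SD in deleted libraries and some cultures were littermates. The simulation is therefore no check on the calls made here. Shared windows and exon overlaps came from GENCODE M21, and start regions from RefSeq.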

Additional observations from a re-analysis of the deposited data

How the results depend on the processing

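Over all genes 1066 were called, against 673 with scaling by total counts, 2200 with DESeq2, 2307 with voom sample weights, 422 with litter as a random block, 193 with littermates summed, 2299 without deleted replicates 1 and 3, and 189 to 2182 with 1 library left out. Total counts moved the median log2 fold change from 0.05 to -0.09 and the split from 688 higher and 378 lower to 309 and 364. Relative to that median Hdac4 was 0.67 and 0.68 and Hdac2 -0.62 and -0.60. Of the 10 members 1 was called, against 0 with total counts, litter as a block or littermates summed, 2 with DESeq2, 3 with sample weights, 2 without deleted replicates 1 and 3, and 0 to 2 with 1 library left out. Hdac4 was called in 11 of 21 alternatives, with values of 0.59 to 0.86 and adjusted p of 0.00536 to 0.171. Of 95 partner genes 3 were called, against 0 with total counts or littermates summed, 8 with DESeq2, sample weights or without deleted replicates 1 and 3, 1 with litter as a block or without deleted replicates 1 and 4, and 0 to 9 with 1 library left out. Kat7, at -3.02 with an adjusted p of 0.128, passed with voom (-4.92), sample weights (-4.10) and without deleted replicates 1 and 3 (-8.51), which were picked for their Kat7 reads.

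With the replicate number as a replicate block 319 genes, 0 members and 0 partner genes were called. The labels do not say that the numbers pair the cultures, and they were not taken to, since not every pair of same-numbered libraries had deviations correlated over 0.1 (0.0961, 0.221, 0.11 and 0.331), and 4 of 8 libraries correlated best with their own number.

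Values that changed sign were Hdac1 at 0.12 with sample weights (-0.35 to 0.0063 with 1 library left out, the highest without deleted replicate 2), Hdac8 at -0.13 without deleted replicates 1 and 4, and Hdac9 (-0.49 to 0.15 with 1 library left out, the highest without deleted replicate 2). With total counts Chd4 was -0.057, Ncor1 -0.037 and Camk2b -0.039. Camk2b was also -0.041 with litter as a block and -0.026 with littermates summed. Without deleted replicates 1 and 3 Chd4 was -0.0052, Camk2b -0.0498 and Sirt1 0.053, and without deleted replicates 1 and 4 Camk2b was -0.067, Hsp90ab1 0.12, Sirt1 0.059 and Hdac10 -0.074. With 1 library left out Chd4 ran from -0.011 to 0.13, Camk2b from -0.016 to 0.30, Hsp90ab1 from -0.34 to 0.014 and Sirt1 from -0.17 to 0.082. The cause was not tested. Hdac11, with 9 to 65 reads a library, is the member whose level depth limits most.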
